A study of Drosophila melanogaster with 6 samples.

Results

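Zinc moves across fly cell membranes through a pair of transporter families. ZIP proteins carry zinc into the cytosol, from outside the cell or out of organelles, and ZnT proteins carry it the other way, out of the cell or into the Golgi, secretory vesicles and storage granules. In Drosophila, enterocytes take zinc up from food with ZIP proteins on one face and pass it to the body with ZnT proteins on the other, and the Malpighian tubules, which do the work of a kidney, store and excrete the excess.

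The 10 genes described are 6 ZIP genes (Zip102B, Zip42C.1, Zip42C.2, Zip88E, Zip89B and Zip99C) and 4 ZnT genes (ZnT35C, ZnT63C, ZnT41F and ZnT86D). They were picked by symbol, chosen on family membership after the differences between the stocks were known, and Zip102B had already been seen to be lower in the mutant. Their differences are therefore given as a description, with no p-value. Each has 1 probe set, so 10 of the 18769 probe sets tested belong to them. The array also measured 7 other genes of the families, which brings the genes covered to 17.

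The arrays compare Calment1/4, a mutant that was isogenized into a stock called CS10, with CanS (Canton-S), a wild-type stock. All 6 samples were whole adult females cultured at 25 °C, pooled at 30 to 35 flies a sample, with 3 samples a stock that the titles call biological replicates. The labels do not give the age of the adults. Mutation and stock background change together, so each difference is one between stocks. In whole flies, fewer cells of a type and less RNA per cell cannot be told apart.

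The tissue label fitted its markers, with yolk protein genes among the brightest probe sets (Yp1 at 13.98 in Calment1/4 and 14.03 in CanS on the log2 scale) and all 6 male markers among the dimmest 15.9% of probe sets. Array medians lay between 5.84 and 5.91. One array of each stock stood apart on yolk and eggshell markers. The closest array to Calment1/4 replicate 1 was CanS replicate 3 (r = 0.995), and not one of its own group. CanS replicate 3 was itself closest to an array of its own group, CanS replicate 2 (r = 0.996). Around each gene's mean, 11 yolk and eggshell markers had a median of -0.35 in Calment1/4 replicate 1 and 0.28 to 0.32 in its group mates, and of -0.56 in CanS replicate 3 and 0.03 to 0.21 in its mates.

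Across the array, limma called 87 of 18769 probe sets at an adjusted p of 0.05, or 0.464%. Those lower in Calment1/4 made up 0.197%. Of the 10 genes, 1 was called, Zip102B, and it was lower. The 3 arrays of one stock all lay on one side of the other 3 for Zip102B and Zip99C, 2 of 10 genes, where 12.6% of all probe sets did so. Since the choice of genes followed this contrast, nothing is read from these shares. The median difference was -0.03 on the log2 scale over the 10 genes and 0.0005 over all probe sets. Of the 6 ZIP genes 5 were below 0 (median -0.19), and of the 4 ZnT genes 1 was (median 0.02), beside 49.8% of all probe sets below 0. Of the 7 other family genes 6 were below 0. They included all the other ZnT genes measured, ZnT33D, ZnT49B and ZnT77C.

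**Figure D1:**
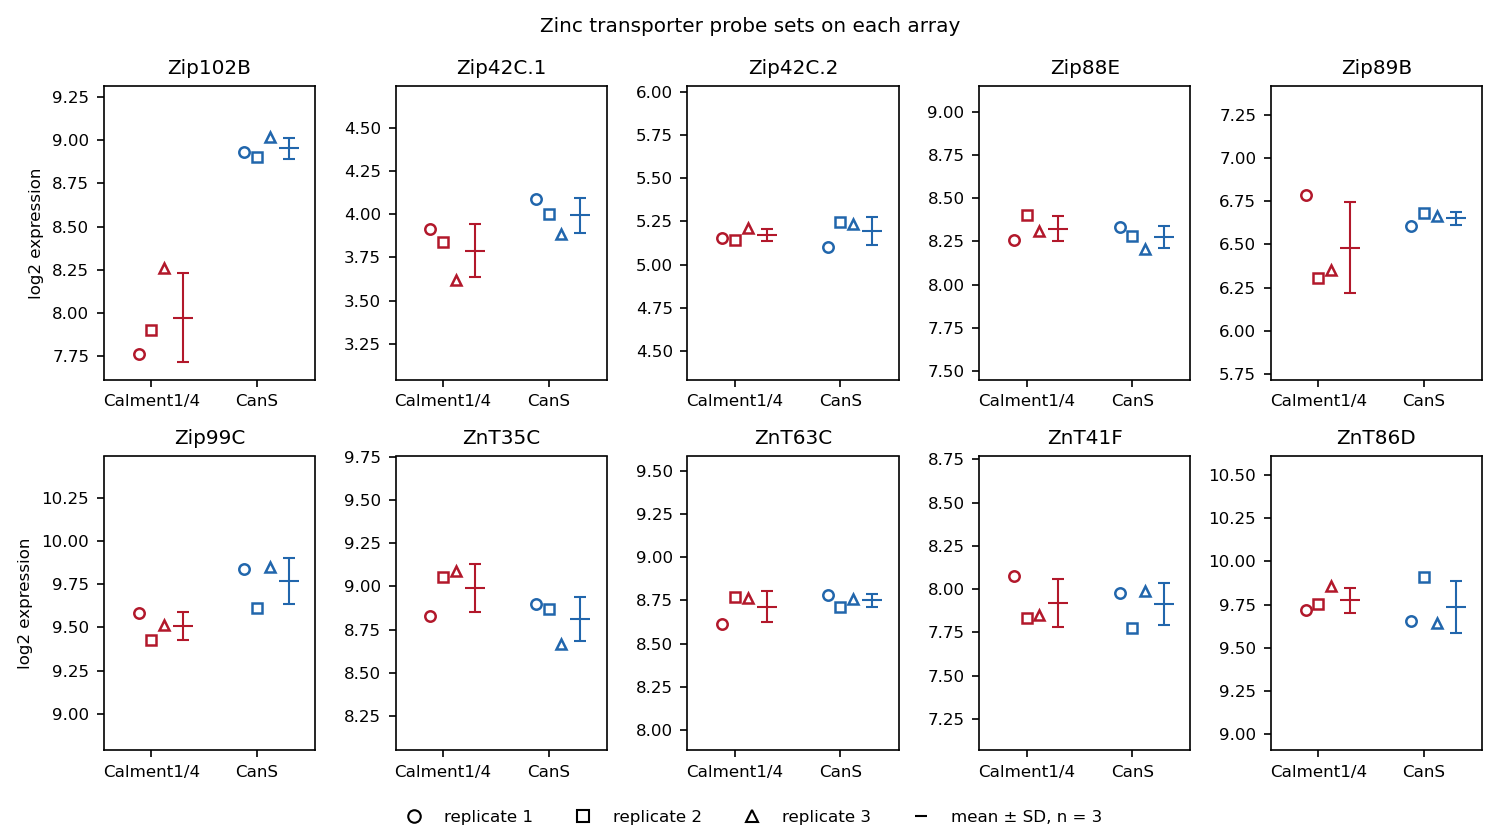
Log2 expression of the 10 zinc transporter probe sets on each array, Calment1/4 in red on the left and CanS in blue on the right. Symbols mark the replicate number, the bar is the mean ± SD of 3 arrays, and every panel spans the same log2 range around its own mean. Zip102B and Zip99C are the 2 panels in which the stocks do not overlap.

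Zip102B (CG2177), a ZIP family gene on chromosome 4, differed most. Its log2 values were 7.76, 7.90 and 8.26 in Calment1/4 replicates 1 to 3, against 8.93, 8.91 and 9.02 in CanS. The highest Calment1/4 array lay well below the lowest CanS array. The Calment1/4 mean was 7.97 ± 0.26 and the CanS mean 8.95 ± 0.06 (SD, n = 3 each), a difference of -0.98 on the log2 scale (SE 0.13, 95% interval -1.27 to -0.69), or 1.97-fold lower in Calment1/4. The difference was larger in size than that of 99.4% of all probe sets, and it was 5.28 times the pooled SD within the stocks. Zip102B had already been seen to be lower when the genes were chosen, so nothing is read from this rank or ratio.

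The size of the Zip102B difference stayed between -1.12 and -0.87 as each array was left out in turn, while the call depended on the arrays. It was lost without Calment1/4 replicate 2 (-0.94), CanS replicate 1 (-0.99), CanS replicate 2 (-1.002) or CanS replicate 3 (-0.95), and kept without Calment1/4 replicates 1 or 3. Without Calment1/4 replicate 1 and CanS replicate 3 together the difference was -0.84 and the call was kept. That alternative was added after seeing the data, and it called 228 of all probe sets, against 87 with all arrays. Nothing is read from the kept call. Within Calment1/4, replicate 1 had the lowest Zip102B value, 0.32 below the mean of its mates, so this array was not nearer to CanS for this gene.

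The genes on either side of Zip102B were compared, to ask whether the chromosome around it differed too. Rad23, a DNA repair and protein degradation factor, lies before it and averaged 10.91 ± 0.20 in Calment1/4, against 11.01 ± 0.07 in CanS (log2, SD, n = 3 each). The difference of -0.10 did not pass (adjusted p = 0.951 in limma), and it was 0.01 without Calment1/4 replicate 1. Rnf11, a RING finger protein gene, lies after it and averaged 8.68 ± 0.23 in Calment1/4, against 8.84 ± 0.12 in CanS, on its brighter probe set (log2, SD, n = 3 each), a difference of -0.17 (adjusted p = 0.903 in limma). Dropping a Calment1/4 array gave -0.29 (replicate 1) or -0.05 (replicate 3), and dropping CanS replicate 3 gave -0.10. On its other probe set the difference was -0.33 with no overlap between stocks (adjusted p = 0.507 in limma).

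**Figure D2:**
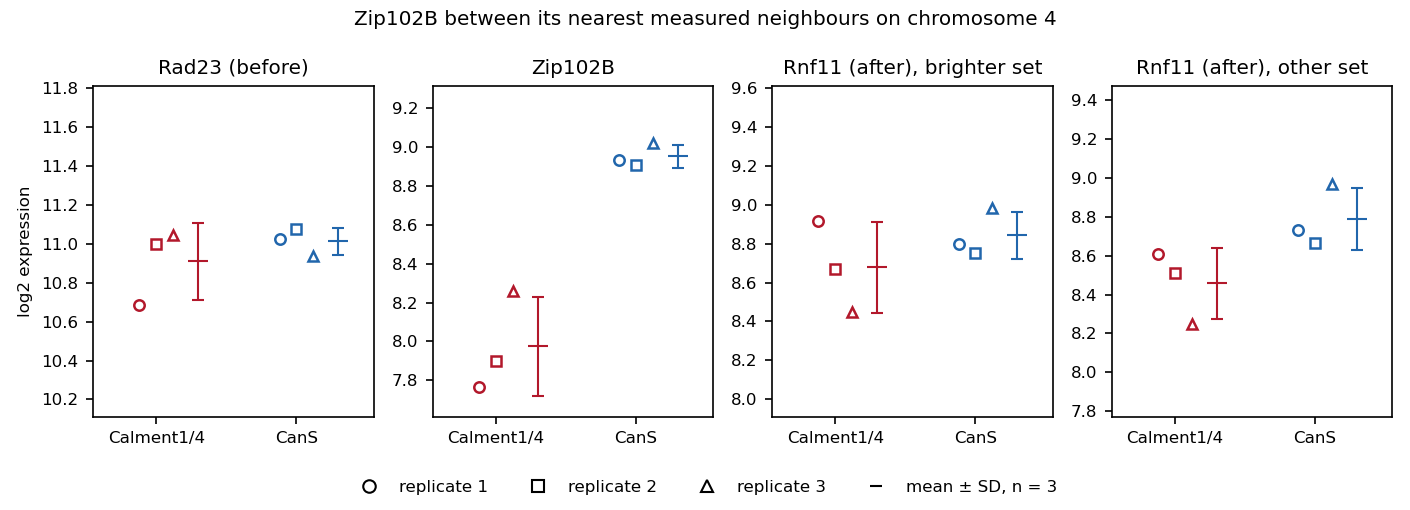
Log2 expression of Zip102B and of its nearest measured neighbours on each side along chromosome 4, on each array, Calment1/4 left of CanS, with the mean ± SD of 3 arrays. Zip102B differs by -0.98 between the stocks, Rad23 by -0.10, and the probe sets of Rnf11 by -0.17 and -0.33.

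Chromosome 4 is small, and 82 probe sets of 65 genes on it were measured. Zip102B had the lowest difference of the 82, of which 25.6% were below 0, with a median of 0.08. Of the 82, limma called 2 and put 17 at an unadjusted p under 0.05, beside 87 and 1440 of all 18769. The 2 were Zip102B and fuss, named after its values were seen, which was 0.87 higher in Calment1/4 on the log2 scale (adjusted p = 0.0162 in limma). For the other 9 genes, too, the flanking genes were examined. In all 18 neighbours of the 10 genes were measured. On the brightest probe set of each none passed in limma, with 0 at an unadjusted p under 0.05, while the other probe set of Rnf11 was at an unadjusted p of 0.0245 in limma. Among the brightest probe sets the smallest p belonged to chk, at 0.20 (adjusted p = 0.674 in limma), beside Zip42C.1, and to the odorant receptor gene Or42a, at -0.18 (adjusted p = 0.829 in limma), beside ZnT41F. The other probe set of chk, dimmer at percentile rank 32.0 of brightness, was at -0.01 (adjusted p = 0.997 in limma).

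Zip99C (CG7816) is the fly relative of mammalian ZIP13 and has been linked in flies to iron delivery into the secretory pathway. Its log2 values were 9.59, 9.43 and 9.51 in Calment1/4, against 9.84, 9.62 and 9.85 in CanS. All 3 Calment1/4 arrays were lower, but the highest of them lay only just under CanS replicate 2. The difference was -0.26 (SE 0.09, 95% interval -0.48 to -0.04), between -0.34 and -0.22 as single arrays were left out, and it was not called.

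Zip42C.1, Zip42C.2 and Zip89B are ZIP genes of the gut, where they serve zinc uptake from food. Zip42C.1 (CG9428) had log2 values of 3.91, 3.84 and 3.62 in Calment1/4, against 4.09, 4.002 and 3.89 in CanS. The stocks overlapped by the margin between Calment1/4 replicate 1 and CanS replicate 3, and the difference was -0.20 (SE 0.10, 95% interval -0.44 to 0.03). Dropping a Calment1/4 array moved it to -0.12 (replicate 3) or -0.27 (replicate 1), and dropping the pair of arrays that stood apart gave -0.32. This probe set was dim, at percentile rank 20.4 of brightness, where values can be compressed towards the floor and a fold understated. The brightest male marker in these females, Mst57Dc, was close to it (log2 3.79 in Calment1/4 and 3.63 in CanS, percentile rank 15.9). Whether Zip42C.1 stood above background was not judged.

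Zip42C.2 (CG9430) is the next measured gene after Zip42C.1 on chromosome arm 2R. It stood at log2 values of 5.16, 5.14 and 5.21 in Calment1/4, against 5.10, 5.25 and 5.24 in CanS, with the Calment1/4 arrays inside the range of the CanS arrays. The difference was -0.02 (95% interval -0.21 to 0.16). Whether the 2 genes differ in their response was not tested.

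Zip89B (CG6898) split the Calment1/4 arrays. It stood at log2 values of 6.78, 6.30 and 6.36 in Calment1/4, against 6.61, 6.68 and 6.67 in CanS. Calment1/4 replicate 1 was the highest of all 6 arrays and its mates were the lowest. The difference was -0.17 (SE 0.13, 95% interval -0.47 to 0.12), and -0.32 both without Calment1/4 replicate 1 and without that array and CanS replicate 3. Leaving out a different Calment1/4 array gave -0.08 (replicate 2) or -0.11 (replicate 3). The SD was 0.26 in Calment1/4 and 0.04 in CanS.

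Gut markers, a list chosen with earlier results of these data known, were set beside these genes as a description. All 7 measured of the 9 listed were lower in Calment1/4, with a median difference of -0.40. None was called in limma, and 5 were at an unadjusted p under 0.05, beside 1440 of all 18769 probe sets. Their list medians around each gene's mean were -0.24 to -0.08 on the Calment1/4 arrays and 0.12 to 0.32 on the CanS arrays, and the log2 of their summed level was 15.41 to 15.47 in Calment1/4 and 15.56 to 15.57 in CanS. The trypsins alphaTry (14.03 in Calment1/4 and 14.07 in CanS) and betaTry (14.12 in Calment1/4 and 14.13 in CanS) were bright on every array. Both were close to the top of the array's range, where differences can be compressed, and as the brightest gut markers they weigh most in the sum. Of the other lists, fat body had a median difference of -0.40 (3 of 4 measured markers lower) and muscle of -0.20 (3 of 3). The remaining fat body marker, AkhR, was higher in Calment1/4. It was at 0.56 on its brighter probe set (adjusted p = 0.0608 in limma) and at 0.51 on the other (adjusted p = 0.0976 in limma). The yolk and eggshell and the female germline lists were each at 0.10, and the Malpighian tubule and male lists each at -0.05. Of the 11 yolk and eggshell markers 7 were higher in Calment1/4 and 4 lower. Limma called 1 of the 11, Cp18, which was 0.74 higher (adjusted p = 0.0435 in limma). The part of the gut markers in the differences of the ZIP genes was not tested.

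Zip88E (CG4334) was the 1 ZIP gene of the 6 above 0. On the log2 scale it was at 8.26, 8.40 and 8.31 in Calment1/4, against 8.33, 8.28 and 8.21 in CanS. The arrays interleaved, and the difference was 0.05 (95% interval -0.14 to 0.24), between 0.01 and 0.08 as single arrays were left out.

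ZnT35C (CG3994) works in the Malpighian tubules, where it moves zinc into vesicles for storage and excretion. Log2 values of 8.83, 9.05 and 9.09 were measured in Calment1/4, against 8.90, 8.87 and 8.67 in CanS. The difference of 0.18 (SE 0.10, 95% interval -0.06 to 0.42) was the highest of the 10 genes, and it was not called. The arrays that stood apart were the lowest of their stocks, Calment1/4 replicate 1 by 0.24 and CanS replicate 3 by 0.22 against their mates. With the first of these dropped the difference was 0.26, with the second dropped 0.11, and with both dropped 0.19.

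Malpighian tubule markers were divided. Of 8 listed, 6 were measured, 3 higher and 3 lower in Calment1/4, with a median of -0.05. None was called in limma, and 2 were at an unadjusted p under 0.05, beside 1440 of all 18769 probe sets. Their list medians ran from -0.04 to -0.01 on the Calment1/4 arrays and from -0.02 to 0.04 on the CanS arrays, and the log2 of their summed level over 11.57 to 11.65 in Calment1/4 and over 11.63 to 11.78 in CanS. Their part in the ZnT35C values was not tested.

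ZnT63C (CG17723), the fly relative of mammalian ZnT1, exports zinc from gut cells into the body. On the log2 scale it was at 8.61, 8.77 and 8.76 in Calment1/4, against 8.78, 8.71 and 8.76 in CanS. Only Calment1/4 replicate 1 was outside the CanS range, and the difference was -0.04 (95% interval -0.22 to 0.15).

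ZnT86D (CG6672), the relative of mammalian ZnT7, a transporter of the Golgi, had log2 values of 9.72, 9.76 and 9.86 in Calment1/4, against 9.66, 9.91 and 9.64 in CanS. The Calment1/4 arrays all lay inside the CanS range, and the difference was 0.04 (95% interval -0.18 to 0.26). ZnT41F (CG11163) had log2 values of 8.08, 7.83 and 7.85 in Calment1/4, against 7.98, 7.77 and 7.99 in CanS. Its difference of 0.01 (95% interval -0.23 to 0.24) was the smallest in size of the 10 genes, and its sign changed as arrays were left out (-0.07 to 0.05).

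**Figure D3:**
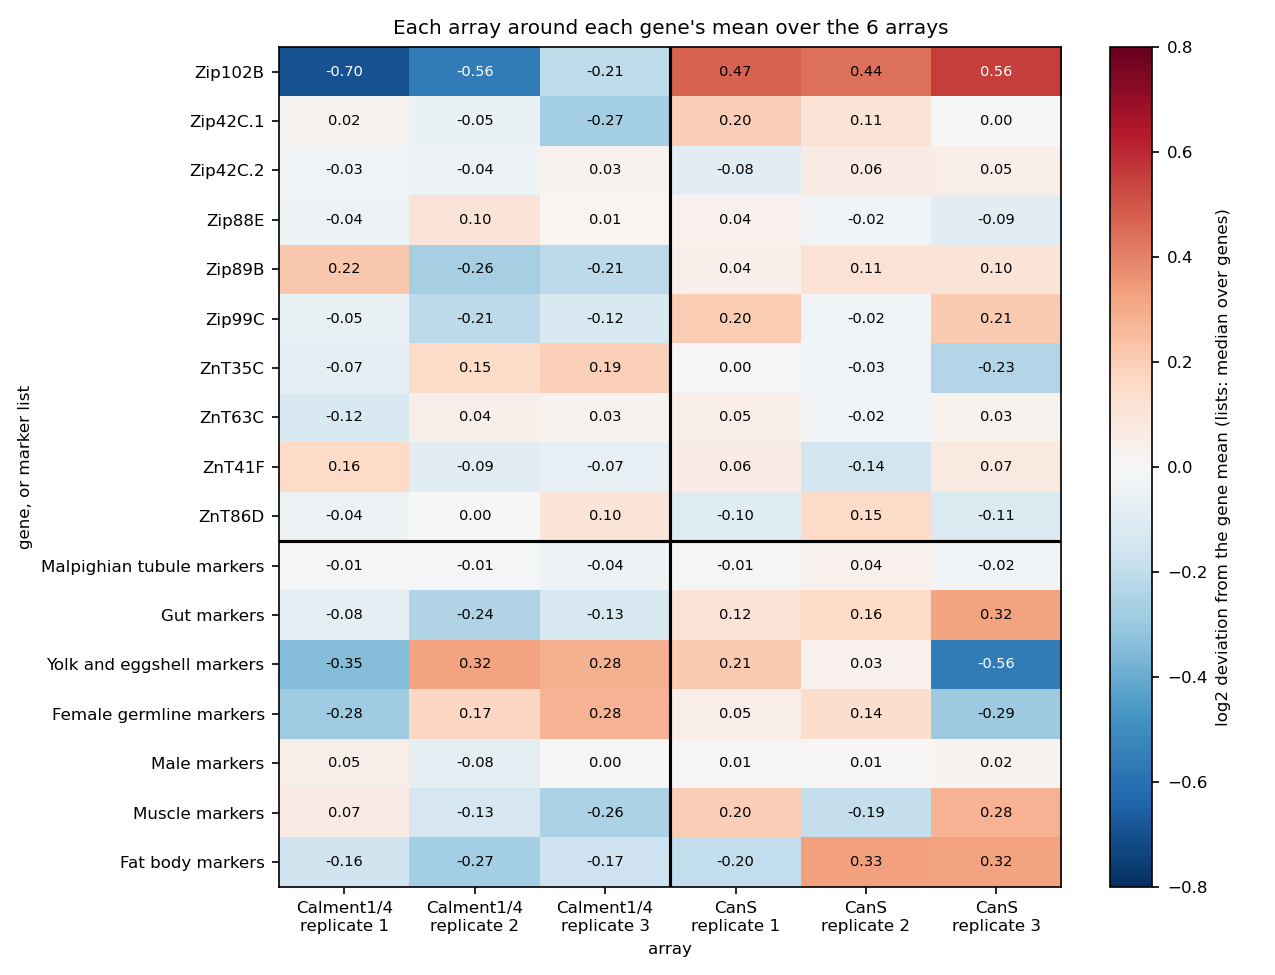
Log2 deviation of each array from the gene's mean over the 6 arrays for the 10 zinc transporters, and below the line the median deviation of 7 tissue marker lists, Calment1/4 arrays left of CanS arrays. Zip102B spans -0.70 to -0.21 on the Calment1/4 arrays and 0.44 to 0.56 on the CanS arrays, while the yolk and eggshell markers are lowest on Calment1/4 replicate 1 and CanS replicate 3.

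For 6 of the 10 genes the sign of the difference was the same with each array left out in turn, and for 4 (Zip42C.2, ZnT63C, ZnT41F and ZnT86D) it changed at least once. Zip89B and Zip102B had the widest spread within stocks, each with a pooled SD of 0.19. This SD was larger than that of 81.9% of all probe sets for Zip89B and of 80.9% for Zip102B. The SD of Zip42C.2 was larger than that of only 11.3%.

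The 7 other genes of the families were then tested, to set the 10 genes beside the rest of the 2 families. None passed in limma, and 1 was at an unadjusted p under 0.05, beside 1440 of all 18769 probe sets. That gene was Zip71B (CG10006), a ZIP gene of zinc uptake in the Malpighian tubules. Its log2 values were 7.06, 6.97 and 7.16 in Calment1/4, against 7.45, 7.33 and 7.40 in CanS, with no overlap between the stocks. The difference was -0.33 (SE 0.08, adjusted p = 0.207 in limma), lower in 3 of 3 Calment1/4 arrays, and it lay between -0.38 and -0.29 under every alternative, with adjusted p of 0.170 to 0.754.

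Of the others, foi, a ZIP gene needed for cell migration and gonad formation, averaged 9.98 ± 0.09 in Calment1/4, against 9.84 ± 0.12 in CanS (log2, SD, n = 3 each), a difference of 0.14 (adjusted p = 0.865 in limma). Catsup, the relative of ZIP7 and an inhibitor of catecholamine synthesis in flies, had the same mean of 9.81 in Calment1/4 and in CanS, with a 95% interval of the difference of -0.17 to 0.17. Zip48C was at -0.11 (adjusted p = 0.907 in limma). ZnT77C, a relative of ZnT63C, averaged 7.26 ± 0.07 in Calment1/4, against 7.38 ± 0.05 in CanS (log2, SD, n = 3 each). Its difference of -0.12 came with no overlap and did not pass (adjusted p = 0.867 in limma). ZnT49B was at -0.07 (adjusted p = 0.954 in limma) and ZnT33D at -0.03 (adjusted p = 0.995 in limma).

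**Figure D4:**
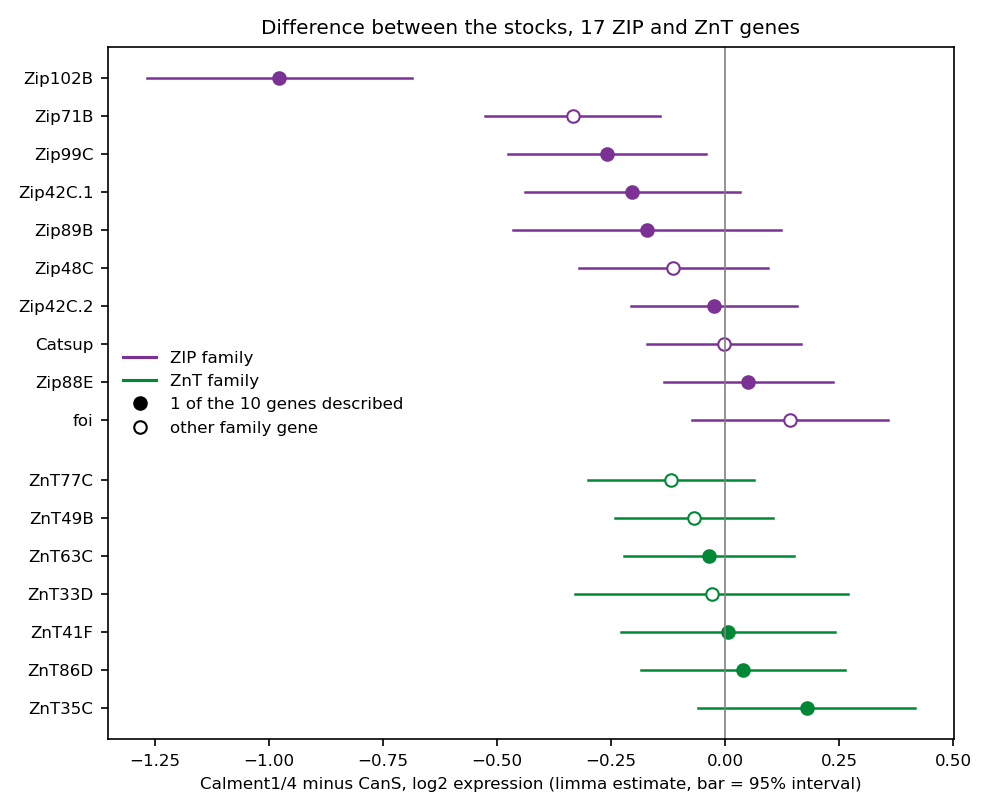
Difference between Calment1/4 and CanS in log2 expression for the 17 ZIP and ZnT genes measured, with its 95% interval from limma, ZIP genes in purple above ZnT genes in green. Zip102B at -0.98 lies apart from the other 16, which run from -0.33 (Zip71B) to 0.18 (ZnT35C).

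Cells answer high zinc through MTF-1, a transcription factor that turns on metallothioneins, small proteins that bind zinc and copper. Of 6 such genes listed, 5 were measured and none passed in limma, with 0 at an unadjusted p under 0.05. MTF-1 averaged 9.34 ± 0.08 in Calment1/4, against 9.32 ± 0.05 in CanS (log2, SD, n = 3 each). MtnB had the smallest p, with a difference of 0.15 (adjusted p = 0.902 in limma), and MtnC followed at -0.09 (adjusted p = 0.956 in limma). As arrays were left out MtnB ran from 0.08 to 0.25 and MtnC from -0.15 to -0.02. MtnA was at 14.17 in Calment1/4 and 14.20 in CanS, close to the top of the array's range, where differences can be compressed.

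Zinc storage granules of the tubules are lysosome-related organelles, built with the help of genes first known for eye colour. Of 14 such genes listed 12 were measured. None passed in limma, and 2 were at an unadjusted p under 0.05, beside 1440 of all 18769 probe sets. The pigment precursor transporter gene st (scarlet) averaged 7.96 ± 0.15 in Calment1/4, against 8.25 ± 0.08 in CanS (log2, SD, n = 3 each), a difference of -0.29 (adjusted p = 0.454 in limma). The vesicle trafficking gene cm (carmine) was at -0.24 (adjusted p = 0.638 in limma). Both had all 3 Calment1/4 arrays below all 3 CanS arrays, and the list's median of 0.03 had the opposite sign. Of all probe sets 12.6% had no overlap between the stocks, in either direction, and nothing is read from these 2 genes.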

How the data were processed

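The data are 6 one-colour Affymetrix arrays of whole adult females, 3 per stock, mapped to groups by their titles. Per the labels' protocols, total RNA (TRI-Reagent) was the template for biotinylated cRNA. The authors deposited 1 log2 expression summary per probe set and array. Per the submitters' processing notes, affy 1.36.0, RMA and MAS5 were named. Which of these produced the deposited log2 table is not stated. The range and near-equal array medians of the values are of the kind RMA gives, and such values cannot show a change shared by most transcripts.

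Leaving out 183 AFFX controls, 18769 probe sets remained. Names came from the platform annotation, updated through gene identifiers to RefSeq (Release 6 plus ISO1 MT). There were 13647 probe sets with 1 symbol (13544 of them in RefSeq), 402 with several and 4720 with none. The test was limma (version 3.58.1, R version 4.3.3), two-sided, with lmFit and eBayes on stock as the only term, Benjamini-Hochberg adjustment over the 18769 probe sets and a threshold of 0.05. The brightest probe set stood for a gene with several. Named are the 10 genes, the 7 other family genes, and from each further list the genes past the threshold or, with none, the 2 of smallest p, besides the neighbours of Zip102B. The genes and lists were chosen with earlier results of these data known.

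Alternatives were a further quantile normalization, median centring, a filter on dim probe sets, the trend and robust options of eBayes, the replicate block, probe sets averaged per gene, and each array left out. The limma step was tested on simulated data with known changes. It recovered 38.4% of changes of 0.5 in size on the log2 scale, 86.8% of 1 and 98.8% of 2. Small differences can thus go uncalled with 3 arrays a stock. The simulated noise was independent for each probe set, so it lacked the array pattern described above. Replicate numbers did not pair the arrays. No probe set sequences, promoters or proteins were used here. Whether the stocks differ in sequence under a probe set was therefore not tested. Figures were drawn with matplotlib 3.10.9.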

Additional observations from a re-analysis of the deposited data

How the results depend on the processing

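With 3 arrays a stock, the 95% intervals of the 10 genes reached 0.18 to 0.29 on either side on the log2 scale. Scanner files were not used here, so whether Zip42C.1 stood above background was not judged. The number of probe sets called was 87, and 30 with the replicate block, 57 with probe sets averaged per gene (over 11982 genes), 38 to 281 with 1 array left out and 228 without Calment1/4 replicate 1 and CanS replicate 3, an alternative added after seeing the data. The number of the 10 genes called was 1, and 0 with the replicate block. It ran from 0 to 1 with 1 array left out. With that block Zip102B stayed at -0.98 and lost its call. Replicate numbers did not pair the arrays: same-numbered arrays deviated together at r = -0.29, 0.20 and -0.43, and not every array correlated best with its own number. Among uncalled genes, the sign turned for Catsup with median centring (0.0066) and with arrays left out (-0.021 to 0.014), and with arrays left out for ZnT33D (-0.14 to 0.11) and Rad23 (-0.17 to 0.011). The counts of other family, neighbour, metal response and organelle genes called were 0 under every alternative. The causes were not tested.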
